A study of Mus musculus with 4 samples.

Results

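The epithelial and homeostatic chemokines are a set of secreted or membrane-held attractants that many tissues make at rest. They were examined in PyMT-A cells, a line of FVB/NJ mouse mammary tumour cells whose name refers to the polyoma middle T oncogene. Members were chosen by name: Cxcl12, Cxcl14, Cxcl16, Cxcl17, Cx3cl1, Ccl20, Ccl25, Ccl27a and Ccl28. Of these 9 genes, 8 had a row among the 33677 gene symbols of the count table; Cxcl17 is not analysed here. Poly(A) RNA was sequenced in 4 libraries, 2 from PyMT-A cells infected with a PMSCV virus carrying Jagged1, a membrane ligand of Notch receptors (Jagged1 cells), and 2 from PyMT-A cells infected with the PMSCV-puro virus (vector cells). Both lines grew in DMEM with 10% serum, and the labels do not say whether either line is a single clone or whether the libraries of a line came from separate cultures, so the p-values measure only the spread between these libraries, which may be technical. The series title names macrophage recruitment and T cell suppression, and the comparison asks which of these attractants differed between the cultured tumour cells themselves.

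Chemokines are small proteins that draw cells bearing the matching G protein-coupled receptor up a concentration gradient. The epithelial and homeostatic ones position leukocytes in resting skin, gut, lung and mammary gland. Most are secreted, whereas CXCL16 and CX3CL1 are made as transmembrane proteins with the chemokine domain on a mucin stalk, and act as adhesion molecules until the proteases ADAM10 and ADAM17 release them.

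Total counts were 20835208 and 13549258 in the Jagged1 libraries and 15609720 and 12136227 in the vector libraries. Levels are counts relative to library size after TMM scaling (CPM). The detection floor was set at a count of 3, or between 0.145 and 0.244 CPM, a limit that covers counting error only. Jag1 itself stood at 274.7 and 324.5 CPM in Jagged1 cells, against 10.5 and 9.12 CPM in vector cells. It was the 1 gene of 13299 that passed an adjusted p of 0.05 (edgeR's quasi-likelihood test, Benjamini-Hochberg), a background of 0.00752% of the tested genes. Of the epithelial markers, Krt19 had 1 count in all, and the summed level of the list of 5 was 3709 and 3132 CPM in Jagged1 cells, against 3579 and 3196 CPM in vector cells. The strongest separation among libraries was not between the lines: 51.6% of the variance lay on a principal component that set the libraries numbered 1 apart from those numbered 2. The second component, with 32.4% of the variance, set the lines apart, with scores of -34.5 and -7.72 in Jagged1 cells, against 27.1 and 15.1 in vector cells. Markers of other cell types differed among the libraries. Myoepithelial markers, a list of 5, summed to 748.7 and 376.7 CPM in Jagged1 cells, against 459.5 and 232.9 CPM in vector cells. Most of this was Krt14, which was higher in the libraries numbered 1 of both lines. Trp63 was higher in those numbered 2, at 7.21 and 19.7 CPM in Jagged1 cells, against 5.88 and 7.57 CPM in vector cells. Krt5, Acta2 and Oxtr were at or near 0. The summed level of the 7 fibroblast markers was 10.1 CPM in Jagged1 1 and 61.7 CPM in Jagged1 2, against 4.43 and 7.003 CPM in vector 1 and 2, and the collagen gene Col1a2 had 0 and 280 counts in Jagged1 cells, against 0 and 0 in vector cells. Not all 7 followed the collagens. Pdgfra, a receptor for platelet-derived growth factor, was at 8.03 and 6.72 CPM in Jagged1 cells, against 3.37 and 4.97 CPM in vector cells, Lum had 0 counts in every library, and Thy1 had 1 count in all, in vector 2. Some leukocyte markers and the endothelial gene Cdh5 were higher in the libraries numbered 2 of both lines. The macrophage gene Lyz2 had 0 and 89 counts in Jagged1 cells, against 0 and 71 in vector cells, the macrophage gene Adgre1 had 0 and 16 counts in Jagged1 cells, against 0 and 6 in vector cells, and the endothelial gene Cdh5 had 10 and 84 counts in Jagged1 cells, against 6 and 32 in vector cells. The leukocyte marker gene Ptprc had 0 and 1 counts in Jagged1 cells, against 1 and 1 in vector cells. The other endothelial markers were at or near 0. Pecam1 had 0 and 0 counts in Jagged1 cells, against 4 and 1 in vector cells. Kdr had 2 and 3 counts in Jagged1 cells, against 0 and 1 in vector cells. Tie1 and Emcn had 0 counts in every library.

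None of the members passed the adjusted threshold. Of the 8 measured, 6 had enough reads to be tested (Cxcl14, Cxcl16, Cx3cl1, Ccl20, Ccl25 and Ccl27a), and 0 of the 6 were called higher and 0 lower; the adjusted p was 0.9999 for each in edgeR. Cxcl14 alone was under 0.05 before adjustment, where 3.96% of all tested genes stood. The log2 fold changes of Jagged1 over vector ran between -1.15 for Ccl20 and 0.94 for Cxcl14, with a median of 0.17 beside -0.003 over all tested genes. In Cxcl14 and Ccl27a each Jagged1 library was higher than each vector library, in Cxcl16 and Ccl20 each was lower, while the groups overlapped in Cx3cl1 and Ccl25. Over all tested genes 13.9% were separated upward and 15.1% downward in this way. For a single value, 2 libraries against 2 cannot give an exact two-sided permutation p under 0.333, so no such test was run. In bulk RNA, fewer cells making a transcript and less of it in each cell cannot be told apart.

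**Figure D1:**
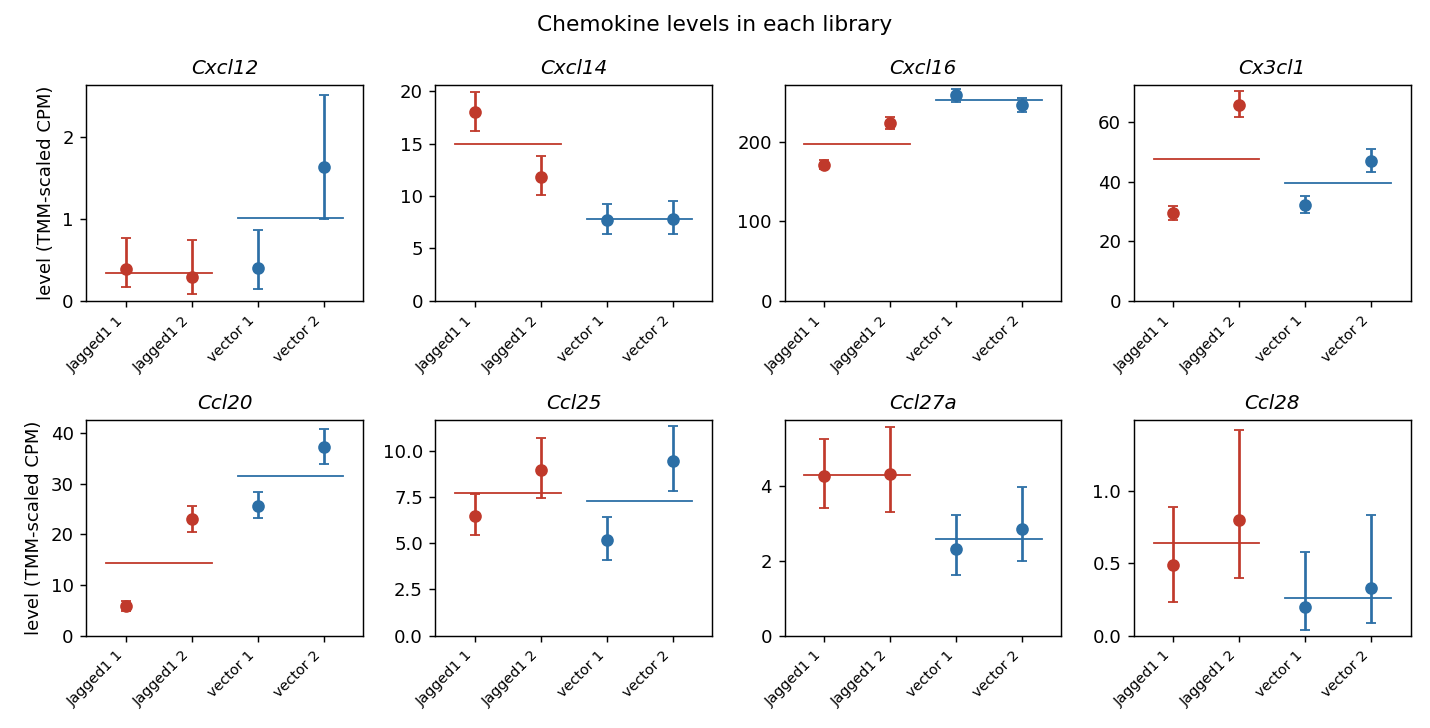
Level (TMM-scaled CPM) of the 8 measured chemokines in each of the 4 libraries, on linear axes that start at 0; error bars are exact 95% Poisson intervals of the counts, which cover counting error only, and horizontal lines are the means of 2 libraries. Cxcl14 and Ccl27a lay higher in both Jagged1 libraries, and Ccl20 was at 5.76 CPM in Jagged1 1 and 22.96 CPM in Jagged1 2.

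The promoter stretches of the members at both ends of the range are shown first, because Ccl20 had the most negative and Cxcl14 the most positive fold change. Each holds the 250 bases before the annotated start in RefSeq (GRCm38.p6), read 5′ to 3′ on the gene's own strand. Capitals mark matches to the consensus of NF-kB, the inflammatory transcription factor, or to the letters TGGGAA, the core bound by RBPJ, the DNA-binding partner of Notch, on both strands.
Ccl20, chr1:83116516-83116765, plus strand: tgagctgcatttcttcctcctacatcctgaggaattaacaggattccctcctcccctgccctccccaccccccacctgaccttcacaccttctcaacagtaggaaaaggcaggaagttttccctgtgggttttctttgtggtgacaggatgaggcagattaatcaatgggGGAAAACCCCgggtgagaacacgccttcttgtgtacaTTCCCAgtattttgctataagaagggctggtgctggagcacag
Cxcl14, chr13:56296552-56296801, minus strand: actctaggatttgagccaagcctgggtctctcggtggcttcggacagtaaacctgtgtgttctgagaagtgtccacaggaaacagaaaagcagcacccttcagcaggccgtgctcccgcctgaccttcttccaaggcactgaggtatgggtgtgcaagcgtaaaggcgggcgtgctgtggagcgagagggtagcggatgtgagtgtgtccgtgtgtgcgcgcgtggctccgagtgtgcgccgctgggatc
In Ccl20 the NF-kB match began at position -80 from the start and the RBPJ match at -43, read there as TTCCCA, and the matches did not overlap. Cxcl14 held neither set of letters in this window. Among the 32851 RefSeq start windows of the same length, 7.25% held the NF-kB consensus and 21.6% the RBPJ letters. Promoter windows were at hand for 7 of the 9 members. Of the other members among them, Cxcl12 and Cx3cl1 each held 1 RBPJ match, at -170 and -159, and Ccl25, Ccl27a and Ccl28 held neither motif at any annotated start. The Cx3cl1 window ran from 94771930 to 94772179, past the first base of the gene span given below, 94772009. Its RefSeq start and its match thus lie inside that span, which comes from another annotation. A match describes the letters and is not a bound site.

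Cxcl14 (chromosome 13, 56288643 to 56296551, minus strand) encodes a secreted CXC chemokine that normal epithelia make constitutively and that attracts monocytes and immature dendritic cells. It was at 18.0 and 11.8 CPM in Jagged1 cells, from 372 and 164 counts, against 7.73 and 7.82 CPM in vector cells, from 117 and 96 counts. Both Jagged1 libraries were higher, and they differed from each other by far more than the vector libraries did. The mean was 14.9 ± 4.36 CPM in Jagged1 cells and 7.78 ± 0.0584 CPM in vector cells (SD, n = 2 each), a ratio of 1.92. The log2 fold change was 0.94 ± 0.28 (SE) and did not pass (unadjusted p = 0.0183, adjusted p = 0.9999, edgeR's quasi-likelihood test). Without Jagged1 1 it was 0.61, and without Jagged1 2 it was 1.21. Fibroblasts are another known source of Cxcl14. Jagged1 1, the library with the highest Cxcl14, also had the highest level of the fibroblast marker Pdgfra (8.03 CPM), while the summed level of the 7 fibroblast markers was highest in Jagged1 2, and the part of these markers in the result was not tested.

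Cxcl12 (chromosome 6, 117168535 to 117181367, plus strand) encodes the ligand of CXCR4 that retains stem cells and lymphocytes in bone marrow and that stromal cells make in most tissues. Except in vector 2 it was close to the floor, with 8 and 4 counts in Jagged1 cells, against 6 and 20 counts in vector cells. It was not tested. These counts correspond to 0.387 and 0.289 CPM in Jagged1 cells, against 0.397 and 1.63 CPM in vector cells. Vector 2 was the 1 library that stood out, with an exact 95% Poisson interval of 0.995 to 2.52 CPM, while the interval of vector 1, 0.146 to 0.863 CPM, overlapped those of both Jagged1 libraries. The vector libraries thus differed from each other beyond counting error, and no difference between the lines can be read from these counts.

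Cxcl16 (chromosome 11, 70453983 to 70459984, minus strand), the transmembrane ligand of CXCR6 on T cells and natural killer T cells and a scavenger receptor for oxidised lipoprotein, was the member with the most reads. It was at 171.3 and 223.6 CPM in Jagged1 cells, against 258.5 and 246.97 CPM in vector cells. Both Jagged1 libraries were lower, and the gap between the Jagged1 libraries was larger than the gap between Jagged1 2 and vector 2. The mean was 197.5 ± 37.0 CPM in Jagged1 cells and 252.8 ± 8.18 CPM in vector cells (SD, n = 2 each), a ratio of 0.781. The log2 fold change of -0.36 ± 0.18 (SE) did not pass (adjusted p = 0.9999, edgeR), and it was -0.18 without Jagged1 1 and -0.56 without Jagged1 2. Exons of Cxcl16 share 552 bases with Zmynd15 on the opposite strand; Zmynd15, named for this overlap, was at 3.24 and 4.48 CPM in Jagged1 cells, against 3.77 and 4.80 CPM in vector cells.

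Cx3cl1 (chromosome 8, 94772009 to 94782427, plus strand) encodes fractalkine, the transmembrane ligand of CX3CR1 on monocytes, macrophages and microglia. Its level was 29.5 and 65.9 CPM in Jagged1 cells, against 32.3 and 46.9 CPM in vector cells. The Jagged1 libraries lay on both sides of the vector libraries, and in each line the library numbered 2 was the higher one. The log2 fold change of 0.27 ± 0.41 (SE), with an adjusted p of 0.9999 in edgeR, had no stable sign: it was -0.42 without Jagged1 2, 0.74 without Jagged1 1, 0.04 without vector 1 and 0.55 without vector 2. Jagged1 2, the highest library, also had the highest fibroblast marker sum, and Lyz2, Adgre1 and Cdh5 were likewise higher in the library numbered 2 of each line, as given above; the part of these markers in the result was not tested.

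**Figure D2:**
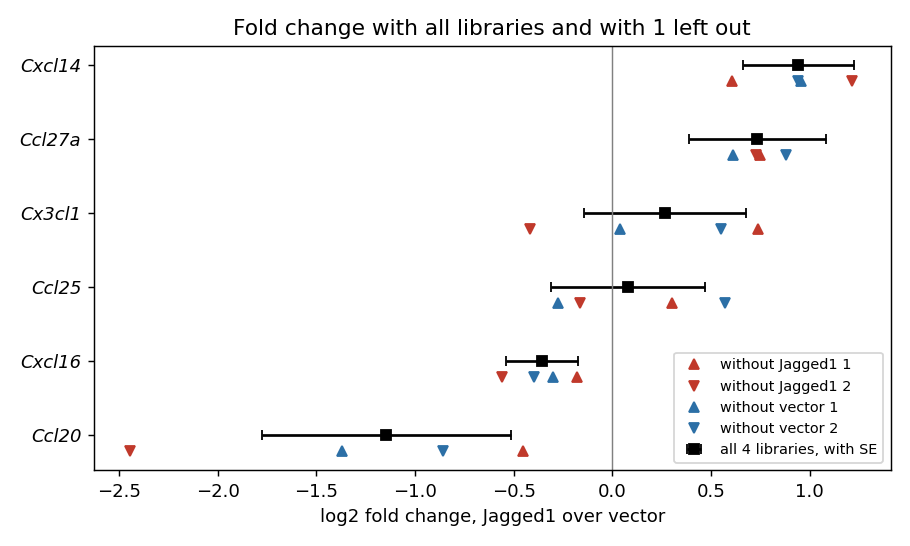
Log2 fold change of Jagged1 over vector for the 6 tested members; squares are the values with all 4 libraries with their standard error, and triangles the values with 1 library left out. Ccl20 ran between -2.44 and -0.45, and Ccl27a stayed between 0.61 and 0.88.

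Ccl20 (chromosome 1, 83116766 to 83119167, plus strand) encodes the ligand of CCR6, by which mucosal epithelia attract immature dendritic cells, B cells and T helper 17 cells, and it is induced through NF-kB. It was at 5.76 and 22.96 CPM in Jagged1 cells, from 119 and 318 counts, against 25.6 and 37.3 CPM in vector cells, from 388 and 458 counts. Jagged1 1 was far below the other libraries, and Jagged1 2 was just below vector 1, with overlapping 95% Poisson intervals of 20.5 to 25.6 CPM in Jagged1 2 and 23.2 to 28.3 CPM in vector 1. The mean was 14.4 ± 12.2 CPM in Jagged1 cells and 31.5 ± 8.23 CPM in vector cells (SD, n = 2 each), a ratio of 0.456. The log2 fold change of -1.15 ± 0.63 (SE) did not pass (adjusted p = 0.9999, edgeR). One library decided it: without Jagged1 2 the value was -2.44 and Ccl20 was called lower (adjusted p = 0.0162, edgeR), while without Jagged1 1 it was -0.45 (adjusted p = 0.73). In both lines the library numbered 2 had more Ccl20, as it had more Lyz2, Adgre1 and Cdh5, and the fibroblast marker sum was highest in Jagged1 2; the part of these markers in the result was not tested.

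Ccl25 (chromosome 8, 4325210 to 4360020, plus strand) encodes the CCR9 ligand of thymus and small intestine. It was at 6.48 and 8.95 CPM in Jagged1 cells, against 5.16 and 9.45 CPM in vector cells. The groups overlapped, and in both lines the library numbered 2 was higher, as were Lyz2, Adgre1 and Cdh5, whose part in the result was not tested. The log2 fold change was 0.08 ± 0.39 (SE), with an adjusted p of 0.9999 in edgeR, and the sign turned when vector 1 (-0.27) or Jagged1 2 (-0.16) was left out; it was 0.57 without vector 2 and 0.30 without Jagged1 1. The first exons share 204 bases with Elavl1 on the opposite strand. Elavl1, named for this overlap, was far more abundant, at 115.1 and 87.96 CPM in Jagged1 cells, against 106.8 and 102.4 CPM in vector cells, and without strand, reads in the shared stretch cannot be assigned.

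Ccl27a (chromosome 4, 41769467 to 41774247, minus strand) encodes the CCR10 ligand by which keratinocytes attract skin-homing T cells. It was at 4.26 and 4.33 CPM in Jagged1 cells, from 88 and 60 counts, against 2.31 and 2.85 CPM in vector cells, from 35 counts in each. The Jagged1 libraries were both higher and nearly equal. The 95% Poisson intervals were 3.42 to 5.25 CPM in Jagged1 1 and 3.31 to 5.58 CPM in Jagged1 2. Both overlapped the interval of vector 2, 1.99 to 3.96 CPM, and lay above that of vector 1, 1.61 to 3.22 CPM. The mean of Ccl27a was 4.30 ± 0.0525 CPM in Jagged1 cells and 2.58 ± 0.379 CPM in vector cells (SD, n = 2 each), a ratio of 1.66. The log2 fold change of 0.74 ± 0.35 (SE) did not pass (unadjusted p = 0.0839, adjusted p = 0.9999, edgeR), and it stayed between 0.61 and 0.88 when each library in turn was left out. Ccl27a ends 8 bases inside the interleukin 11 receptor gene Il11ra1 on the opposite strand, and a copy, Ccl27b, is annotated elsewhere on chromosome 4, so the assignment of its reads is uncertain. Il11ra1 was at 20.7 and 17.3 CPM in Jagged1 cells, against 19.0 and 17.7 CPM in vector cells (log2 fold change 0.05 ± 0.19, SE). The next gene, Galt, of galactose metabolism, was at 7.07 and 10.6 CPM in Jagged1 cells, against 7.07 and 8.31 CPM in vector cells.

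Ccl28 (chromosome 13, 119623819 to 119654359, plus strand) encodes a second CCR10 ligand, made by mucosal epithelia and lactating mammary gland, where it draws antibody-producing plasma cells. It had 10 and 11 counts in Jagged1 cells, against 3 and 4 counts in vector cells, and was not tested. These correspond to 0.484 and 0.794 CPM in Jagged1 cells, against 0.198 and 0.326 CPM in vector cells. Both Jagged1 libraries were higher, but the 95% Poisson interval of Jagged1 1, 0.232 to 0.890 CPM, overlapped those of vector 1, 0.0409 to 0.580 CPM, and vector 2, 0.0887 to 0.834 CPM. In a fit without the low-count filter the adjusted p was 0.992 for Ccl28 (log2 fold change 1.25 ± 0.90, SE) and 0.992 for Cxcl12 (-1.52 ± 0.79, SE).

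Levels of different genes were compared per kilobase of annotated exon. Cxcl16 led in both lines, at 65.4 ± 12.2 CPM per kb in Jagged1 cells and 83.7 ± 2.71 CPM per kb in vector cells (SD, n = 2 each), a level above that of 94.5% of the tested genes in Jagged1 cells and 95.6% in vector cells. Next in Jagged1 cells came Cx3cl1 (12.1 ± 6.54 CPM per kb), Ccl20 (10.1 ± 8.56) and Cxcl14 (8.17 ± 2.38), 3 levels that do not differ beyond their spread. In vector cells Ccl20 came next (22.1 ± 5.79 CPM per kb), then Cx3cl1 (10.1 ± 2.63) and Cxcl14 (4.26 ± 0.0319). Ccl27a was at 1.81 ± 0.0221 CPM per kb in Jagged1 cells and 1.09 ± 0.160 in vector cells. Ccl25 was at 1.04 ± 0.235 in Jagged1 cells and 0.981 ± 0.407 in vector cells. In vector cells this pair does not differ beyond its spread. The SD of Ccl27a in Jagged1 cells, from 88 and 60 counts, is smaller than counting error, so the pair was not ranked there. Ccl28 (0.132 ± 0.0453 CPM per kb in Jagged1 cells and 0.0541 ± 0.0186 in vector cells) and Cxcl12 (0.0413 ± 0.0085 in Jagged1 cells and 0.124 ± 0.107 in vector cells) were lowest. Of the reads of all 8 members, Cxcl16 took 72.5% and 66.0% in Jagged1 cells, against 77.8% and 69.9% in vector cells.

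**Figure D3:**
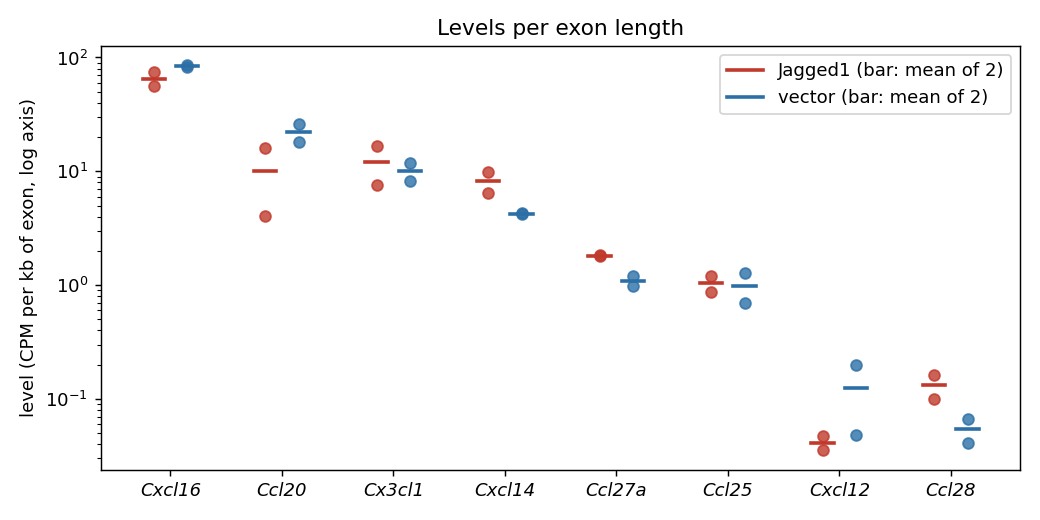
Level of each measured member per kilobase of exon (CPM per kb, log axis), with Jagged1 libraries left of vector libraries; points are libraries and bars the means of 2. Cxcl16 is above every other member in both lines, and Cxcl12 and Ccl28 lie below 0.2 CPM per kb.

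Likeness of pattern was measured against 15 other tested chemokine ligands, as the distance between log2 CPM values centred on each gene's mean over the 4 libraries. Cxcl14 and Ccl27a were each other's nearest, at a distance of 0.51 on the log2 scale, beside median distances to all candidates of 1.91 for Cxcl14 and 1.595 for Ccl27a. The nearest to Cxcl16 was Ccl9 (0.22), a myeloid attractant. Ccl6, another myeloid attractant, was nearest to both Cx3cl1 (0.21) and Ccl25 (0.41). It had only 16 and 21 counts in Jagged1 cells, against 12 and 14 in vector cells, so counting error weighs on its pattern. Ccl20 had no close match: the nearest was the neutrophil attractant Cxcl2 at 1.12, beside a median of 1.695. Cxcl2 was at 0.774 and 1.59 CPM in Jagged1 cells, against 5.49 and 4.48 CPM in vector cells, so unlike Ccl20 it was several-fold lower in each Jagged1 library than in either vector library (log2 fold change -2.10 ± 0.48, SE; adjusted p = 0.914 in edgeR). With 4 libraries these distances are a description, and they share the same libraries and scaling.

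**Figure D4:**
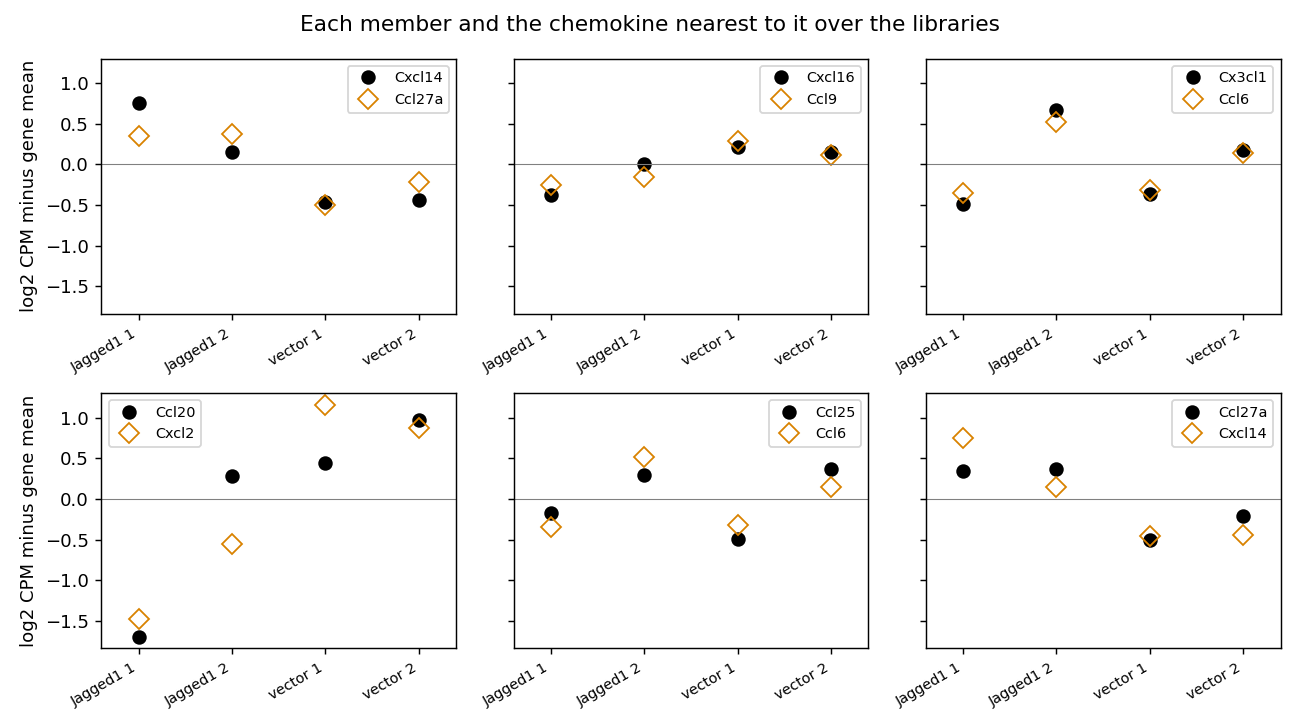
Log2 CPM minus the gene's mean over 4 libraries, for each tested member (filled circles) and the chemokine ligand nearest to it (open diamonds). Cxcl14 and Ccl27a were high in both Jagged1 libraries. Cx3cl1, Ccl25 and Ccl6 (at most 21 counts per library) were high in the libraries numbered 2 of both lines.

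Receptor genes for these chemokines were at or near 0 in the tumour cells apart from Ackr3. Of 9 receptor genes, Ccr6 and Ccr3 had 0 counts in every library, below the floor of between 0.145 and 0.244 CPM, and the CXCL12 receptor gene Cxcr4 had 0 and 0 counts in Jagged1 cells, against 0 and 1 in vector cells. Ccr10, the receptor of CCL27 and CCL28, had 5 and 4 counts in Jagged1 cells, against 2 and 3 in vector cells. Only Ackr3, the atypical receptor that removes CXCL12, was tested, at 2.08 and 3.32 CPM in Jagged1 cells, against 4.23 and 2.44 CPM in vector cells. Its groups overlapped (log2 fold change -0.32 ± 0.47, SE, with an adjusted p of 0.9999 in edgeR).

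Proteases that act on these chemokines were abundant where they shed the membrane-held forms. The list of 8 genes also holds Rhbdf1 and Rhbdf2, whose products are not themselves active proteases. Of the 8, 5 were tested, 4 with positive and 1 with a negative fold change, and 0 passed in either direction. Adam17, the other sheddase, was at 141.5 and 178.7 CPM in Jagged1 cells, against 139.4 and 149.5 CPM in vector cells. Its groups overlapped (log2 fold change 0.15 ± 0.18, SE). Adam10, the constitutive sheddase of CXCL16 and CX3CL1, was at 488.5 and 373.5 CPM in Jagged1 cells, against 374.3 and 296.3 CPM in vector cells (log2 fold change 0.36 ± 0.21, SE). Rhbdf1, which encodes an inactive rhomboid that carries ADAM17 to the surface, was at 174.2 and 173.2 CPM in Jagged1 cells, against 154.6 and 151.3 CPM in vector cells (0.18 ± 0.14, SE). Dpp4, the protease that trims CXCL12, had 0 counts in every library. Ctss had 0 and 9 counts in Jagged1 cells, against 0 and 9 in vector cells. Mmp14 had 2 and 90 counts in Jagged1 cells, against 0 and 0 in vector cells, and was not tested. Mmp2 was at 0.774 and 2.74 CPM in Jagged1 cells, against 0.727 and 1.06 CPM in vector cells.

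Genes of the pathway known to induce Ccl20 were evenly divided in sign. The list mixes activators with Nfkbia (log2 fold change 0.18) and Tnfaip3 (-0.14), which restrain NF-kB, so the split does not measure the pathway's activity. All 12 were tested, with 6 positive and 6 negative fold changes, a median of -0.003, and 0 past the threshold. Il17rc, a subunit of the interleukin 17 receptor, was at 39.6 and 31.6 CPM in Jagged1 cells, against 58.0 and 47.6 CPM in vector cells (log2 fold change -0.57 ± 0.20, SE, with an adjusted p of 0.9999 in edgeR). Il1r1, the interleukin 1 receptor, was at 4.26 and 3.18 CPM in Jagged1 cells, against 2.38 and 1.22 CPM in vector cells (1.04 ± 0.47, SE, with an adjusted p of 0.9999 in edgeR).

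Among the chemokine ligands outside the set, 26 of 29 had a row, 9 of these were at 0 in every library, and 10 were tested. Of the 10, 2 had positive and 8 negative fold changes, 0 passed, and in 7 the lines were separated with Jagged1 cells lower, beside 15.1% of all tested genes. Their median log2 fold change was -1.15, beside 0.17 for the 6 tested members; whether these groups differ was not tested. The ligands with the smallest p were Cxcl10, at 18.1 and 19.1 CPM in Jagged1 cells, against 131.0 and 90.1 CPM in vector cells, and Cxcl11, at 0.532 and 0.867 CPM in Jagged1 cells, against 9.78 and 7.65 CPM in vector cells, with adjusted p-values of 0.419 and 0.46 (edgeR).

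**Figure D5:**
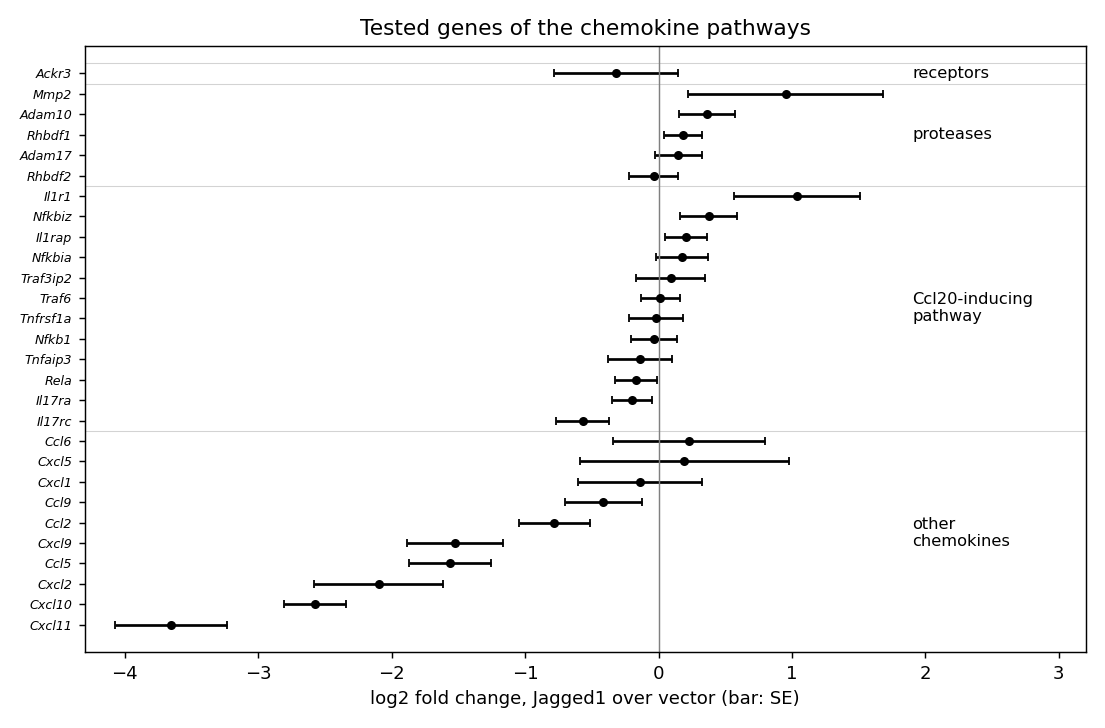
Log2 fold change of Jagged1 over vector with its standard error for the tested genes of the 4 lists around these chemokines, given from top to bottom as receptors, proteases, the Ccl20-inducing pathway and other chemokine ligands. Of the 10 other ligands 8 are negative, and the 12 genes of the Ccl20-inducing pathway, which include inhibitors, are evenly divided in sign.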

How the data were processed

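The authors deposited unnormalized counts of reads, with a column for each library. The numbers 1 and 2 used here are the replicate numbers of the sample titles. Vector 1 and 2 are the columns Acon_1 and Acon_3, and Jagged1 1 and 2 are the columns Am_2 and Am_4. STAR 2.6.0c, featureCounts 1.6.2 and the mm10 (GRCm38) build are named in the submitters' processing notes. Which annotation release was used, and whether counting used strand, is not given in the sources used here. Genes were kept by filterByExpr (minimum count 10), scaled with TMM factors and tested over the whole table with edgeR 4.0.16 in R 4.3.3 (estimateDisp, glmQLFit with robust and legacy settings), with Benjamini-Hochberg adjustment over 13299 genes; the code was tested on simulated data. Standard errors are the absolute log2 fold change over the square root of F. Libraries of a line differed by more than sampling noise (chi-square per degree of freedom 33.8 for Jagged1 and 21.8 for vector), so each counted as 1 replicate. Exon lengths and coordinates come from GENCODE M21 (GRCm38) and promoters from RefSeq; 11449 tested genes had a length. The members and lists were chosen with earlier results of these data known. Named genes are the members, Jag1, up to 2 genes with the smallest p from each list, the nearest chemokines, genes that overlap a member, and receptors or proteases at or near 0. Cell type markers, Adam17, Rhbdf2, Mmp2, Mmp14, Nfkbia and Tnfaip3 are named as well, to describe their lists. Alternatives were DESeq2 1.42.0, limma-voom 3.58.1, other scalings and filters, a replicate block and leaving out each library.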

Additional observations from a re-analysis of the deposited data

How the results depend on the processing

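The number of genes called was 47 with DESeq2 (19 higher and 28 lower in Jagged1 cells), 169 without the low-count filter and 17 with the replicate block, against 1 as reported; it ran between 0 and 193 when each library in turn was left out, with 0 without vector 1 or vector 2, 193 without Jagged1 1 and 49 without Jagged1 2. In these fits the lone library of a line is assumed to vary like the other line. It was 1 with limma-voom, with RLE or upper-quartile scaling and with a minimum mean of 5 CPM, a filter that left Ccl27a untested. Of the 6 members, 0 were called under every alternative except without Jagged1 2, where 1 was (Ccl20, -2.44, adjusted p = 0.0162, edgeR), so leaving out libraries gave between 0 and 1. At an unadjusted p under 0.05 stood 1 member in edgeR, 2 with DESeq2, 2 with limma-voom, 3 with the replicate block, 3 without Jagged1 2, 1 without Jagged1 1 and 0 without vector 1 or vector 2. Of 65 alternative values for single members, 61 kept their direction and their side of the threshold and 3 turned: Cx3cl1 without Jagged1 2 (-0.42), and Ccl25 without vector 1 (-0.27) or Jagged1 2 (-0.16); the cause was not tested. With 1 library left out the ranges were -2.44 to -0.45 for Ccl20, -0.42 to 0.74 for Cx3cl1, -0.27 to 0.57 for Ccl25, -0.56 to -0.18 for Cxcl16, 0.61 to 1.21 for Cxcl14 and 0.61 to 0.88 for Ccl27a. The smallest adjusted p for Cxcl14 was 0.18, without the low-count filter. Libraries with the same number deviated together across genes (r = 0.43), but the labels do not say that a number marks a shared batch and there are 2 pairs, so the pairing was not used; with the replicate block 0 members were called, with Ccl20 at -1.39 (adjusted p = 0.491) and Cxcl14 at 0.92 (adjusted p = 0.262). Counts of 20 or fewer per library limit what can be said of Cxcl12 and Ccl28.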
